A study of Triticum aestivum with 2 samples.

Results

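Cross sections of wheat roots on a chip of the root cap region were compared here with cross sections on a chip of the distal root region. Of each chip, 2 circular areas over single sections were used, named A and B on the root cap chip and C and D on the distal chip, so 4 regions from the 2 samples of the series were compared. The circles had radii of 490 and 550 spots for A and B, and of 610 and 600 spots for C and D. For each gene the molecules were summed over the spots within each circle.

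The study built an atlas of the wheat root and used Stereo-seq, in which polyadenylated RNA from a section is captured on barcoded spots, to place genes in the tissue. All sections came from roots of seedlings of the ecotype Chinese spring, a hexaploid wheat. The seeds had been soaked in the cold and put briefly in a hot water bath. They then germinated on medium and grew in soil, with no treatment of the plants. Fresh roots were frozen in embedding medium and cut across at 10 μm. There was 1 chip, and so 1 library, per region, and the sources used here do not say whether sections of a chip came from different roots, so chip and region cannot be told apart. Sections of a chip are not independent samples, and no test between the sides was made.

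Root cells are formed in the meristem behind the cap, where they divide, and then elongate and differentiate into epidermis, cortex, endodermis and the conducting tissues of the centre. Elongation needs loosening of the cell wall, for which expansins are known, and uptake of water into the vacuole, through aquaporins of the plasma membrane (PIP) and of the vacuole membrane (TIP). Vessels of the xylem later build thick secondary walls of cellulose, xylan and lignin.

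The circles held 326250 and 417242 molecular identifiers (MIDs, counted molecules) in A and B, and 1723444 and 2194778 in C and D. After organelle rows and gene IDs ending in LC were left out, 258127, 326569, 1503168 and 1942047 MIDs remained, and every level below is MIDs per 1000000 of these (CPM). The distal sections were thus several times deeper. Depth was not the only difference between the libraries, since 76.3% and 75.3% of MIDs were exonic in A and B against 85.8% and 87.9% in C and D, and IDs ending in LC took 20.9% and 21.7% of nuclear MIDs against 12.8% and 11.5%. Much RNA also lay off the sections. In a ring from 50 to 300 spots beyond each circle, the density of MIDs was 70.4%, 56.8%, 74.6% and 67.6% of that within circles A, B, C and D.

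The labelled tissue was checked against the study's marker lists, which come from its single-cell clusters and which the study kept for their pattern on these chips. Sections A and B held little root cap RNA. The 19 root cap genes together had 21 and 29 MIDs in A and B, or 81.4 and 88.8 CPM, and 0 in both C and D. No root cap gene reached 20 MIDs over the 4 sections, 16 had at least 1, and the gene with the most, TraesCS2D03G0971800 of the group of Arabidopsis AT3G19430, had 2 and 5 in A and B. The list was denser around the sections than in them, at 338 and 899.8 CPM in the rings of A and B, and at 433 CPM in all of the root cap chip outside the circles. A count of 0 allows up to 2.45 and 1.90 CPM in C and D (exact 95% Poisson limits, counting error only). Against a set floor of 3 MIDs per distal section, which is not this limit, the lower of A and B stood 40.8-fold above the higher floor. These 2 areas are therefore called root cap chip sections here, after their chip and not after the tissue.

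The epidermis, provascular and xylem lists kept their places in all 4 sections, while endodermis, phloem and pericycle genes had too few MIDs in A or B for a position. Epidermis MIDs lay farther from the centre than all MIDs, by 0.16 and 0.17 of the radius in A and B and by 0.20 and 0.19 in C and D. Provascular MIDs lay nearer the centre, by a mean shift of -0.30 and -0.30 in A and B and of -0.35 and -0.39 in C and D. Xylem MIDs did so too, at -0.10 and -0.22 in A and B and at -0.25 and -0.21 in C and D. The maps of marker MIDs show the cortex genes as a band between epidermis and centre.

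**Figure D1:**
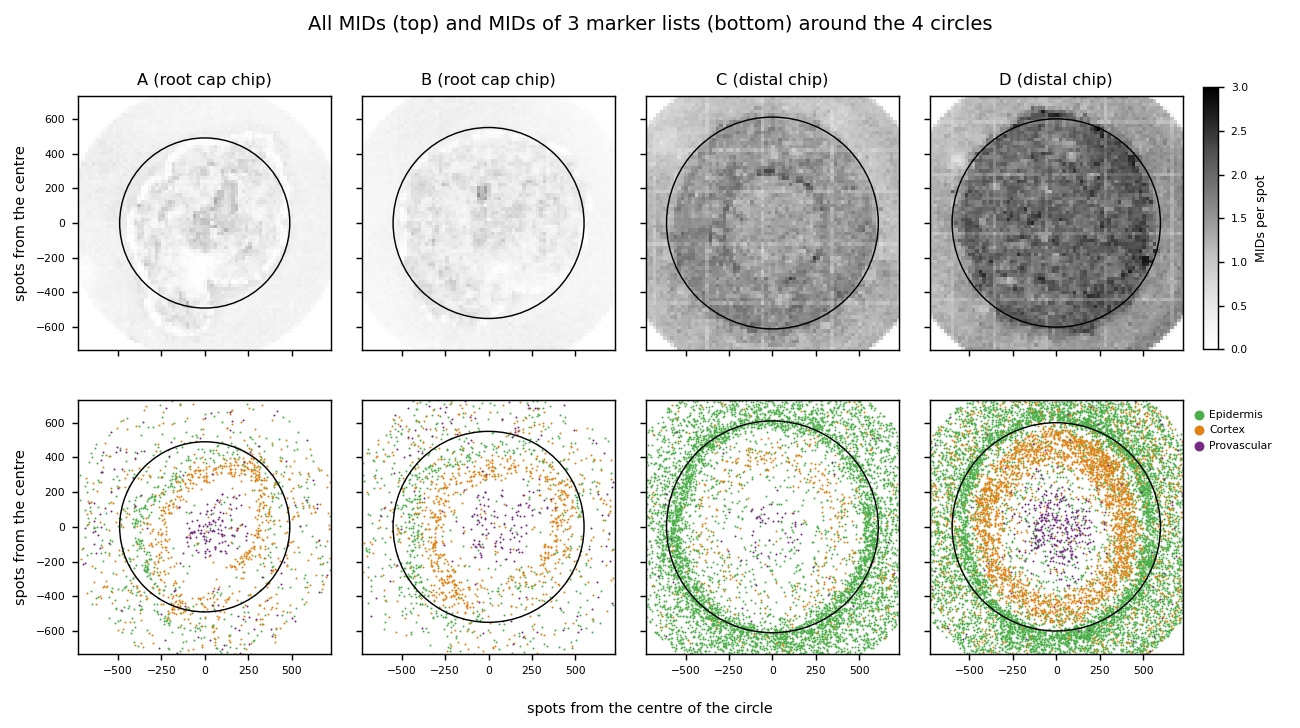
Maps of the 4 circles, with position in spots from the centre on both axes, as density of all MIDs per spot (top, grey scale) and as single MIDs of the epidermis, cortex and provascular marker lists (bottom). Epidermis MIDs lie outermost and provascular MIDs at the centre in each section, the outline of section A is irregular, and many MIDs lie outside the circles.

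Sections of 1 chip resembled each other far more than sections of different chips. Among the 3349 genes whose mean level over the 2 sides was at least 50 CPM, the median absolute log2 difference was 0.29 between A and B and 0.31 between C and D. It was 1.05 to 1.16 in the 4 pairs across chips. A difference of at least 2-fold separated A from B in 7.44% of these genes and C from D in 13.3%, against 52.5% to 57.7% across chips. This spread within a chip is the only error above counting error that these data give, and it does not hold any spread between libraries.

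The ratios across chips fell into 2 groups, with fewer genes between them. Of the 1629 genes with a mean of at least 100 CPM, 269 had a log2 ratio (A and B summed over C and D summed) from -1.5 to -1 and 230 one from 0.5 to 1, while the 2 classes from -1 to 0 held 139 and 147. The same shape stood in each of the 4 pairs across chips and in neither pair within a chip.

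**Figure D2:**
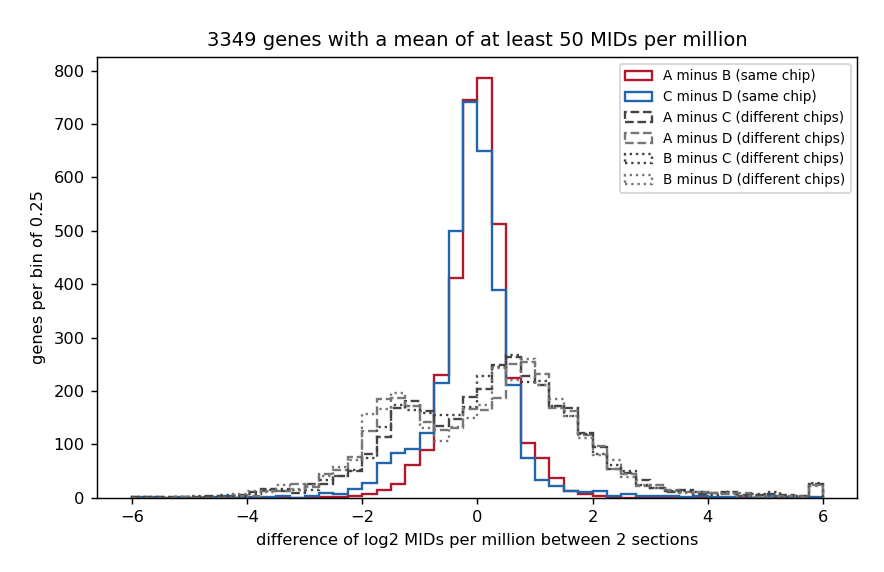
Histogram of the difference in log2 CPM between 2 sections for 3349 genes with a mean of at least 50 CPM (horizontal axis, bins of 0.25) and the number of genes (vertical axis). The pairs A with B and C with D form single narrow peaks, with median absolute differences of 0.29 and 0.31, and the 4 pairs across chips form 2 humps, with values beyond the axis drawn in the outermost bins.

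A gene was called where the lower section of one side was at least 2-fold above the higher section of the other, with a section under 3 MIDs set to 3. Of 22437 genes with at least 20 MIDs over the 4 sections, 2696 were higher in both root cap chip sections (12.0%) and 1255 were lower (5.59%). The median log2 ratio over these genes was -0.07. The larger number of higher calls depends on the filter and on the scaling. Since 3 MIDs are 11.6 and 9.19 CPM in A and B but only 1.996 and 1.54 in C and D, a gene of low level could be called higher but not lower. Among the 3349 genes with a mean of at least 50 CPM, where each side has equal weight, 677 were higher (20.2%) and 557 lower (16.6%). Their median log2 ratio was 0.29, and it was -0.05 with the section totals scaled by trimmed means (TMM). A ratio that is above 0 by less than this shift has no settled direction, and with TMM over all genes tested 1652 were higher and 1954 lower.

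**Figure D3:**
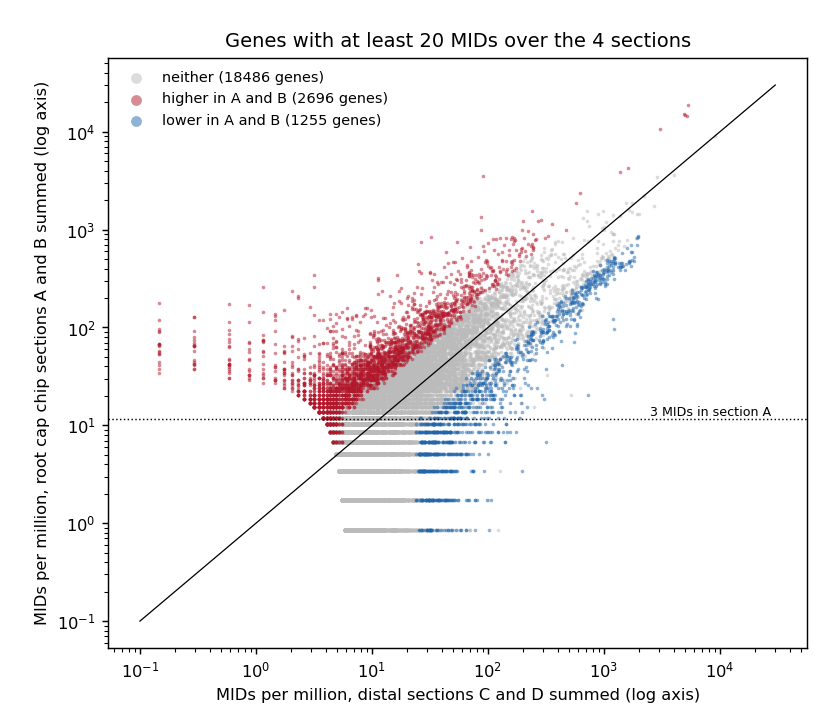
Each point is 1 of 22437 genes, with its level in the distal sections (horizontal) and in the root cap chip sections (vertical), both in CPM on log axes and with a count of 0 drawn below the level of 1 MID. Genes called higher in A and B (2696) and lower (1255) are coloured, and the diagonal marks equal levels. The dotted line marks the floor of section A alone, 3 MIDs or 11.6 CPM, while the axis shows A and B summed and the floor of B was 9.19 CPM.

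Water channels stood higher in the root cap chip sections. In sums over a section, more cells of a type and more RNA per cell cannot be told apart. The families were formed by the descriptions the study gives to marker genes of its single-cell clusters, which were at hand only in part. They are therefore subsets and not the whole gene families of wheat. Genes with a description in the study's tables stood higher as a whole, since 240 of 629 tested were called higher (38.2%) and 18 lower (2.86%), with a median log2 ratio of 1.16 against -0.07 over all genes tested, so a family's count is to be read against these shares. The 3 TIP genes had 2975 and 3353 CPM in A and B against 499 and 296 in C and D. Their summed log2 ratio was 3.05 (exact 95% limits 2.95 to 3.15, counting error only), and all 3 of 3 were called higher. The rings close around the sections kept this order, with 2452 and 2676 CPM around A and B and 303 and 201 around C and D. In all MIDs outside the circles the TIP ratio was smaller, at 1.66.

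TraesCS4B03G0809400, described as TIP1-1, had 384, 512, 486 and 346 MIDs in A, B, C and D, or 1488, 1568, 323 and 178 CPM. TraesCS7D03G0801800, described as TIP2-2, had 197, 299, 11 and 100 MIDs, with a log2 ratio of 4.72, and its distal level came mostly from section D. The widest gap of any gene was at TraesCS7B03G0675100, of the group of Arabidopsis DELTA-TIP3, with 54, 98, 2 and 2 MIDs. It stood at 209 and 300.1 CPM in A and B and at 1.33 and 1.03 in C and D, a log2 ratio of 7.81 (limits 6.42 to 9.70).

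Of 11 PIP genes tested, 8 were higher and none was lower, against 38.2% higher of described genes. The family had 1538 and 1632 CPM in A and B against 409.8 and 220.4 in C and D, a log2 ratio of 2.39 (limits 2.26 to 2.52). The PIP ratio was 0.91 outside the circles. TraesCS2B03G1083100, described as PIP1-3/PIP1-4, had 96, 130, 121 and 125 MIDs and a log2 ratio of 2.44. TraesCS6D03G0557600, a PIP1-1, went the other way with 0, 2, 25 and 13 MIDs and was not called.

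Genes for loosening and remodelling of the cell wall formed a second group. Of 5 expansin A genes tested, 4 were higher (12.0% of all genes tested and 38.2% of described genes were), and the family stood at 430.0 and 557 CPM in A and B against 37.9 and 49.4 in C and D (log2 ratio 3.50, limits 3.21 to 3.79). The 3 genes described as expansin-A2 or expansin-A2-like, which lie on the A, B and D chromosomes of 1 homoeologous group, were all called. Of these, TraesCS3A03G0824200 had 21, 60, 2 and 3 MIDs, TraesCS3B03G0945700 had 30, 41, 7 and 14, and TraesCS3D03G0757800 had 40, 55, 21 and 31. Their log2 ratios were 6.58, 4.32 and 3.43, so the copies differed in how far the distal sections fell below.

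Expansin B genes moved less, with 1 of 5 called higher, a share of 20% that is below the 38.2% of described genes. TraesCS4B03G0963400, an expansin-B4-like gene, had 33, 42, 36 and 57 MIDs (log2 ratio 2.25), and the family ratio was 1.23 (limits 0.93 to 1.52). Of the xyloglucan endotransglucosylases, which cut and rejoin wall xyloglucan, only 1 of 13 reached 20 MIDs, and it was not called.

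Enzymes that cut pectin and other wall sugars were among the genes with the largest gaps. TraesCS3D03G0037900, a probable polygalacturonase, had 38 and 65 MIDs in A and B and 0 in C and D, at least 73.8-fold above the floor of 3 MIDs per section. TraesCS3B03G0046200, with the same description on the B chromosome of that group, had 17, 23, 0 and 0 MIDs, at least 33.0-fold above it. TraesCS7D03G0848600, a beta-galactosidase 9, had 20, 30, 0 and 2 MIDs, with a log2 ratio of 7.20 (limits 5.27 to 10.29).

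Secreted wall proteins and oxidases stood higher too. Of 6 germin-like genes tested, 5 were higher, against 38.2% of described genes. The family had 573 and 655 CPM in A and B against 52.6 and 30.4 in C and D. Its log2 ratio was 3.95 (limits 3.66 to 4.24) within and 1.03 outside the circles. TraesCS6D03G0848200, germin-like protein 1-1, gave 45.0% of their MIDs, with 75, 111, 15 and 24. Of 9 peroxidases tested, 5 were higher, not far from the 38.2% of described genes, with a family log2 ratio of 2.48 (limits 2.24 to 2.71) within and 0.04 outside the circles. The gene with the most MIDs, TraesCS2D03G1302200, peroxidase 12-like, stood at 132 and 135 CPM in A and B against 0.67 and 5.15 in C and D. The 3 peroxidase 35-like genes TraesCS5A03G0953300, TraesCS5B03G1001800 and TraesCS5D03G0909200 were not called, with log2 ratios of -0.67, 0.92 and 0.18.

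Chitinases gave 6 of 10 higher, with a family log2 ratio of 1.85 (limits 1.62 to 2.08). That family leaves out TraesCS3D03G1015700, a chitinase CLP-like gene that another of the study's tables describes, which had 5, 8, 194 and 173 MIDs and was called lower. With it the family had 6 higher and 1 lower of 11 and a ratio of 0.99 (limits 0.78 to 1.197). Monolignol genes gave 1 of 3 higher, at 1.78 (limits 1.50 to 2.06). In MIDs outside the circles the chitinase family without that gene and the monolignol genes were lower on the root cap chip, at -1.17 and -0.23. TraesCS6B03G0759200, a phenylalanine ammonia-lyase, which opens the path to lignin, had 37, 36, 98 and 40 MIDs and was not called. TraesCS6D03G0526000 of the same family had 8, 24, 0 and 19 and was called higher. Of 8 fasciclin-like arabinogalactan proteins 3 were higher, at 1.24 (limits 0.97 to 1.50) within and at -0.33 outside the circles. GDSL esterases gave 4 of 9 higher, at 1.74 (limits 1.45 to 2.04), and annexins, which bind membranes with calcium, 3 of 5 at 1.77 (limits 1.59 to 1.95). The shares of monolignol, fasciclin-like and GDSL genes called higher were near the 38.2% of described genes. Those of chitinases without the added gene and of annexins were above it, at 60% each, but of only 10 and 5 genes.

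Of the cytoskeleton, actin differed more than tubulin. Of 7 actin genes 6 were higher, at 2015 and 1959.8 CPM in A and B against 525 and 679 in C and D. The actin log2 ratio was 1.70 (limits 1.59 to 1.80) within and 0.65 outside the circles. TraesCS1A03G0046300, actin-97-like, had 130, 154, 223 and 235 MIDs. Tubulin gave 7 of 20 higher and none lower, a share no larger than the 38.2% of described genes, with a family log2 ratio of 0.62 (limits 0.55 to 0.69). Within this family the tubulin alpha-1 genes TraesCS2A03G0385200 and TraesCS2D03G0422600 stood apart, with 16, 9, 1 and 1 MIDs and with 8, 14, 5 and 3. The 3 tubulin beta-5 genes TraesCS1A03G0768600, TraesCS1B03G0879400 and TraesCS1D03G0735500 had log2 ratios of -0.15, 0.23 and -0.01 and were not called.

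The study's regulatory network gives 288 wheat genes as targets of VND4, a NAC factor of xylem vessels. Some of these targets are counted in the families above too, among them the expansin-A2, actin-2, chitinase-like protein 1 and tubulin alpha-1 genes called higher. Of 151 targets that were tested, 62 were higher (41.1%) and 4 lower (2.65%), against 12.0% and 5.59% of all genes tested, and their median log2 ratio was 1.29 against -0.07. These shares and this median were close to those of described genes in general, of which 38.2% were higher and 2.86% lower with a median of 1.16. As a list they had 16759 and 16915 CPM in A and B and 6133 and 6582 in C and D (log2 ratio 1.40, limits 1.36 to 1.43).

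Among them were enzymes that make sugar nucleotides for xylan. TraesCS4B03G0570200, TraesCS4D03G0504200 and TraesCS4A03G0204700, described as UDP-glucuronic acid decarboxylase 6, which makes UDP-xylose, had log2 ratios of 2.29, 2.33 and 2.22. TraesCS4B03G0570200 had 213, 268, 249 and 331 MIDs, so the root cap chip sections reached like counts at a fraction of the depth. TraesCS5A03G0850600, a UTP--glucose-1-phosphate uridylyltransferase, which makes UDP-glucose, had 115, 163, 126 and 209 MIDs (log2 ratio 2.29). TraesCS5D03G0900300, UDP-glucose 6-dehydrogenase 4, which oxidises UDP-glucose, had 84, 126, 107 and 130 (2.38). The gene with the most MIDs of the list, TraesCS2B03G1307900, adenosylhomocysteinase, had 121, 183, 334 and 490 and was not called. The 4 lower genes were 2 MFP1 attachment factor 1-like genes, a WLIM1-like and an AIR12-like gene, given below with their values.

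Among the marker lists of tissue layers, xylem, provascular and cortex genes stood higher in A and B, and phloem and epidermis genes did not. The 4 xylem genes, all described as cysteine protease XCP1-like, had 101 and 171 CPM in A and B against 27.3 and 20.1 in C and D (log2 ratio 2.59, limits 2.13 to 3.06). The list therefore stands for 1 kind of protease and not for xylem genes at large. Of these 4 genes 2 were called higher, where 12.0% of all genes tested and 38.2% of described genes were. One of the 2, TraesCS5D03G0377000, of XCP1, a cysteine protease of vessels, had 13, 15, 9 and 6 MIDs. TraesCS5A03G0388600, the XCP1 copy with the most MIDs, had 4, 22, 6 and 19 and was not called, because A was low. TraesCS1A03G0062800 had 2, 9, 21 and 9 MIDs, with the level of C above that of A, and was not called (log2 ratio 1.11, limits -0.03 to 2.15).

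The 13 cortex genes had 2592 and 2765 CPM in A and B but 252 in C and 1682 in D, a 6.67-fold gap between the 2 distal sections. Of them 7 were higher, where 12.0% of all genes tested and 20.2% of those with a mean of at least 50 CPM were. The list ratio of 1.35 (limits 1.26 to 1.43) joins the unlike levels of C and D. TraesCS1D03G0787300 had 88, 113, 0 and 11 MIDs, while TraesCS3D03G0911000 had 18, 18, 12 and 530, with A and B above C and below D. TraesCS1A03G0554500, a cortical cell-delineating protein-like gene outside the list, had 26, 26, 0 and 0 MIDs, at least 39.9-fold above the floor. TraesCS2A03G0988000, of the group of Arabidopsis DRN1, had 30, 36, 0 and 3 (log2 ratio 7.02, limits 5.41 to 9.33). Other members of that group went less far. TraesCS2D03G0925700 had 57, 75, 0 and 80 MIDs and was called higher. TraesCS1A03G0554700, the copy the study names as a cortex marker, had 12, 14, 1 and 198 (log2 ratio -0.38) and was not called. The study's monocot cortex marker TraesCS3A03G0974500 had 28, 43, 25 and 439 and was not called either.

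Provascular genes had 709 and 511 CPM in A and B against 53.2 and 219 in C and D (log2 ratio 2.03, limits 1.83 to 2.23). Only 4 were tested, and 2 of them were called higher, where 12.0% of all genes tested were. The 5 endodermis genes had only 21 MIDs in A and B together, with a ratio of 0.97 (limits 0.19 to 1.71), and A, with 5 MIDs, was at 19.4 CPM, close to the 19.1 CPM of D. The 5 phloem genes had 0 MIDs in A and B and 29 and 34 in C and D, or 19.3 and 17.5 CPM. A count of 0 in A allows up to 14.3 CPM and in B up to 11.3, both below the distal levels. Only 1 phloem gene was tested, and it was not called. This gene, TraesCS7D03G0500500, had 22 and 5 MIDs in C and D and gave 42.9% of the MIDs of the list. The 5 pericycle genes had 27 MIDs in all and gave no value of use.

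**Figure D4:**
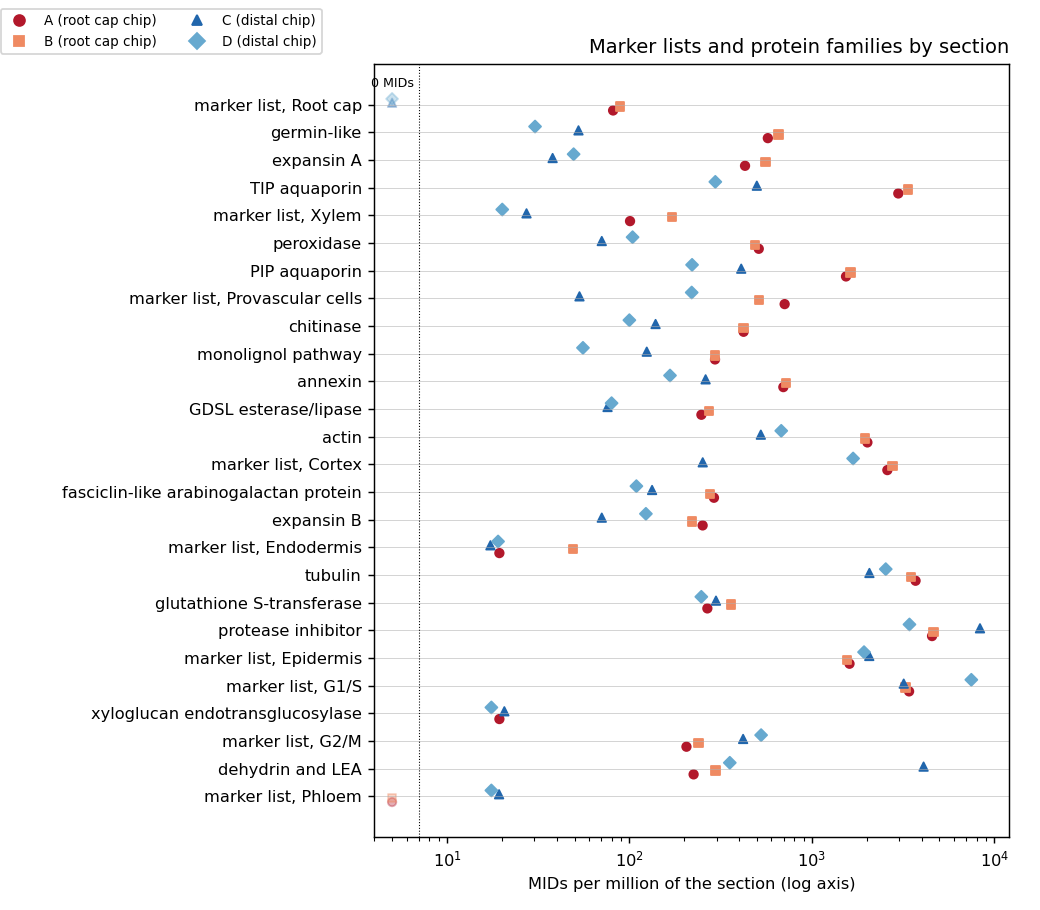
Level of marker lists and protein families with at least 50 MIDs (rows, ordered by ratio) in CPM on a log axis, with 1 point per section and points left of the dotted line at 0 MIDs. TIP aquaporins stand at 2975 and 3353 in A and B against 499 and 296 in C and D, and dehydrins at 4094 in C alone, far above the other 3 sections.

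Cell cycle genes tended the other way, with few calls. The 19 G2/M genes had 205 and 239 CPM in A and B against 419.8 and 527 in C and D, a log2 ratio of -1.10 (limits -1.37 to -0.84), and 2 were called lower, near the 5.59% of all genes tested and the 16.6% of those with a mean of at least 50 CPM. TraesCS2B03G0955500 had 1, 2, 63 and 112 MIDs. The 20 G1/S genes had 3409 and 3261 CPM in A and B, 3186 in C and 7479 in D, so A and B stood above C and below D. Their summed ratio of -0.75 (limits -0.82 to -0.69) rests on section D, and without it the ratio was 0.062. Outside the circles the ratios of G2/M and G1/S were near 0.

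Epidermis genes were near the level of the distal sections as a list, at 1608 and 1562 CPM in A and B against 2062 and 1930 in C and D, with 4 of 14 lower and none higher, where 5.59% of all genes tested and 16.6% of those with a mean of at least 50 CPM were lower. The ratio of -0.33 (limits -0.43 to -0.23) turned to 0.64 with circles 20% smaller. In the rings the list stood at 4254 and 4837 CPM around C and D, above the level within, and at 1511 and 1678 CPM around A and B. TraesCS2D03G0324500, the gene with the most MIDs, had 69, 86, 661 and 830 and turned from -0.71 to 0.37 in the same way. TraesCS2B03G1540400, with 2, 10, 210 and 185 MIDs, was called lower.

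Dehydrins and other late embryogenesis abundant proteins, known from drying seeds and tissues short of water, differed mainly within the distal chip. They had 225 and 297 CPM in A and B, 4094 in C and 355 in D, which is 11.5-fold between C and D. None of the 13 genes was called, although their summed log2 ratio was -2.91 (limits -3.14 to -2.68). TraesCS5B03G1052800, dehydrin Rab15-like, had 4, 8, 1745 and 57 MIDs.

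Protease inhibitors were likewise high in C, at 8342 CPM against 3425 in D, 4556 in A and 4639 in B. TraesCS3B03G0087500, a Bowman-Birk type trypsin inhibitor-like gene, was called lower with 27, 44, 3218 and 914 MIDs, and TraesCS1D03G0042100, of the same description, was called higher with 231, 239, 182 and 362. Glutathione S-transferases had no settled direction as a family, with a ratio of 0.25 (limits 0.01 to 0.47) that was -0.089 with TMM.

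The gene with the widest gap among those lower in the root cap chip sections was TraesCS2B03G1008200, a defensin-like protein CAL1, whose namesake in rice binds cadmium. It had 5, 7, 1163 and 1352 MIDs, or 19.4 and 21.4 CPM in A and B against 774 and 696 in C and D. Its log2 ratio was -5.15 (limits -6.11 to -4.35), and the higher of A and B lay 32.5-fold below the lower of C and D. Outside the circles the ratio was -1.77.

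Of the 1255 genes called lower only 18 had a description in the study's tables, against 240 of the 2696 called higher and 629 of the 22437 tested, so the lower side stays mostly unnamed here. TraesCS6D03G0283500, glutathione S-transferase GSTU6, had 0, 2, 115 and 139 MIDs (log2 ratio -4.43, limits -7.48 to -2.56). TraesCS1D03G1047300, a HDT2-like histone deacetylase, had 16, 12, 331 and 495 (-2.32, limits -2.92 to -1.78). TraesCS3A03G0980900, of the group of Arabidopsis GRP2, had 25, 30, 455 and 695 (-1.83), and its 4 levels showed little spread within either chip.

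TraesCS4B03G0680700 and TraesCS4A03G0099000, the MFP1 attachment factor 1-like genes, had 0, 3, 86 and 110 MIDs and 1, 0, 59 and 64. The AIR12-like gene TraesCS7A03G0589200 had 1, 4, 75 and 76, and the WLIM1-like gene TraesCS5D03G0270100, of a family that bundles actin, had 3, 4, 100 and 71. In each of these genes A and B lay below both distal sections, but at counts of 0 to 4. TraesCS3D03G1015700, the chitinase CLP-like gene given above, which is also in the epidermis list, TraesCS6A03G0463400, tetraspanin-2-like, and TraesCS1A03G0600500, a RAP2-3-like ethylene response factor, were called lower in the same way, with log2 ratios of -2.26, -3.81 and -4.26.

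Among the 10 genes with the widest gaps on each side, those without a description and not among the cortex genes were as follows. On the higher side TraesCS4D03G0725100, TraesCS4B03G0939600, TraesCS4B03G0628700, TraesCS4A03G0148700 and TraesCS7A03G0545000 had log2 ratios of 6.35, 7.60, 6.97, 6.86 and 8.77. On the lower side the gene with the most MIDs was TraesCS3D03G0057300, with 22, 34, 1841 and 2331 MIDs, a log2 ratio of -3.66 (limits -4.07 to -3.28) and levels of 1225 and 1200.3 CPM in C and D. TraesCS5D03G0225100 had 1, 3, 806 and 286 MIDs and a log2 ratio of -5.53, and the other 7, TraesCS1A03G0926300, TraesCS2A03G0246300, TraesCS5A03G0102600, TraesCS1B03G1032500, TraesCS4A03G0145200, TraesCS7A03G0677900 and TraesCS6D03G0883900, lay between -4.37 and -3.46. C and D differed little in these 7 but widely in TraesCS5D03G0225100.

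**Figure D5:**
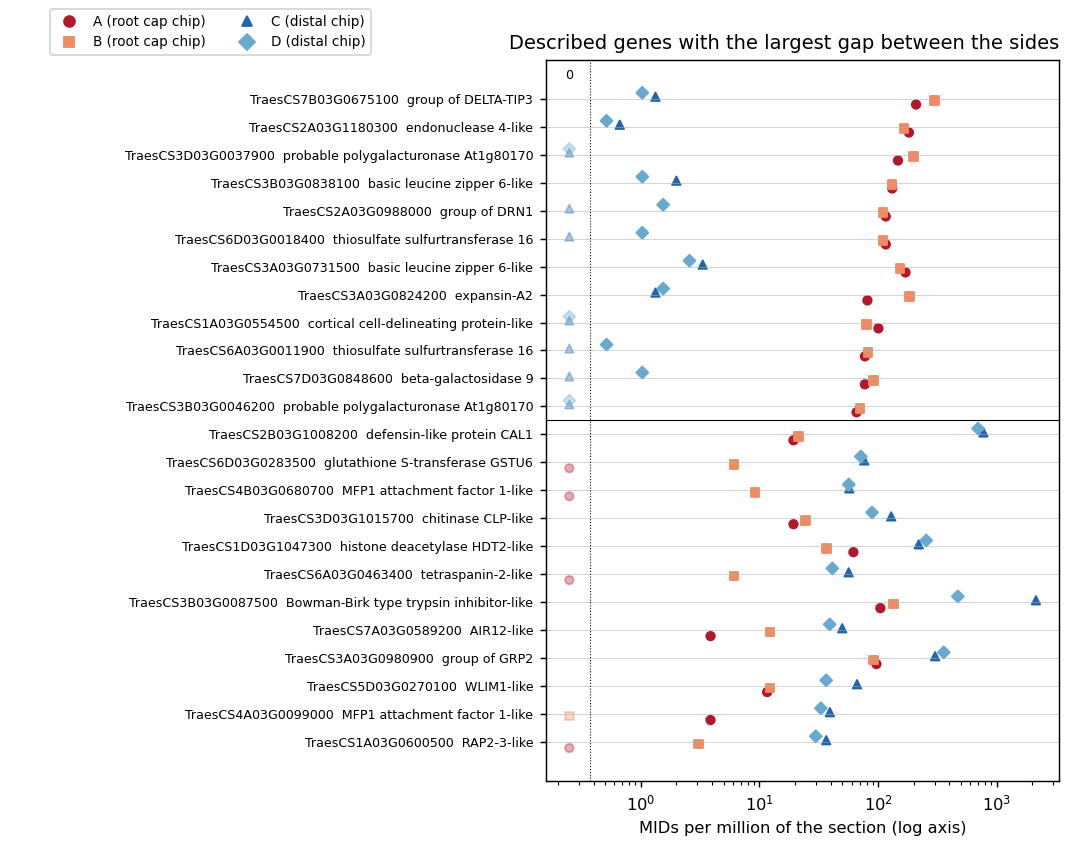
Level in CPM (log axis) of the 12 described genes called higher (above the line) and the 12 called lower (below it) with the widest gap, with 1 point per section and points left of the dotted line at 0 MIDs. The root cap chip sections A and B lie together on one side and the distal sections C and D on the other in each row, which the choice of genes fixes.

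Of the described genes with the widest gaps on the higher side, those that fall in no family above included a nuclease and a sulfur transferase. TraesCS2A03G1180300, endonuclease 4-like, had 47, 54, 1 and 1 MIDs (log2 ratio 8.22, limits 6.33 to 11.28). TraesCS6D03G0018400 and TraesCS6A03G0011900, both thiosulfate sulfurtransferase 16, had 30, 36, 0 and 2 MIDs and 20, 27, 0 and 1. The D and A copies stood at log2 ratios of 7.60 and 8.11, whose limits overlap.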

How the data were processed

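The authors deposited whole-chip tables of Stereo-seq MID counts per gene and spot, as raw counts with the exonic part beside them, not normalized and not restricted to tissue. They used the STOmics Analysis Workflow, with a genome build and annotation not given in the sources used here. Counts were summed here over the circles, and gene IDs ending in LC and the organelle rows were left out. The distal circles held 1503168 and 1942047 MIDs and the root cap chip circles 258127 and 326569, so their lowest level that 3 MIDs reach differs from 1.54 to 11.6 CPM. Limits are exact 95% limits for the split of MIDs between sides and cover counting error only. Python 3.11.15, numpy 2.4.6, pandas 2.3.3 and scipy 1.17.1 were used, and the calls were tested on simulated data.

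Circles, lists and rules were chosen with earlier results of these data known. Genes were named where they had the 10 widest gaps in each direction, the 12 widest among described genes, or the most MIDs of a list or side. The other genes named as members of a list were chosen after their values were seen. Marker lists, network targets and descriptions came from the study's tables. Some of these tables were at hand only in part. No gene ID could be matched to the reference table at hand, so no sequence is printed. The alternatives were exonic MIDs, LC IDs kept, TMM, totals without the 100 top genes, other count minimums and folds, other radii, subtraction of the ring from 50 to 300 spots, leaving out each section, and MIDs outside the circles. Scaling by the median ratio, a floor only on the lower side, a minimum of 200 MIDs, a mean of at least 50 CPM and families by the descriptions of all tables were added after the data had been seen.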

Additional observations from a re-analysis of the deposited data

How the results depend on the processing

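The counts of 2696 higher and 1255 lower genes moved with the scaling, the filter, the fold and the area. They were 1652 and 1954 with TMM, 1793 higher with the median ratio, 1651 and 666 with the ring subtracted, 623 and 160 at 4-fold, and 10238 and 4254 at any fold. With at least 50 MIDs 1398 were higher, with at least 200 MIDs 370 and 702, and with a mean of at least 50 CPM 677 and 557. With at least 1 MID 26365 were higher, because the floor lifts the shallow sections, and 3410 with the floor only on the lower side. At the main minimum that floor gave 2462. Higher genes made up 68.2% of calls, against 45.8% with TMM, 49.3% with the median ratio and 57.5% with LC IDs kept. MIDs outside the circles, with 1 value a chip and other sections among them, gave 3419 and 11476. Leaving out 1 section gave 2619 to 3636 higher and 1663 to 2047 lower genes (2047 without A, 1964 without D). A call over fewer sections is easier to reach by construction.

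Of 505 alternative values for 34 lists 15 changed sign, as did 7 of 994 for 74 genes. Outside the circles these were G1/S at 0.083, chitinase at -1.17, monolignol at -0.23, fasciclin-like proteins at -0.33, remorins at -0.25 and the genes matched to Arabidopsis dividing cells at 0.10. Single genes there were TraesCS1B03G0109700 at 0.10, TraesCS1B03G0069700 at 0.10, TraesCS6B03G0759200 at -0.59, TraesCS3D03G0686600 at -0.030, TraesCS1B03G1150600 at -0.011 and TraesCS5A03G1097200 at -0.094. With smaller circles, epidermis was at 0.64 and TraesCS2D03G0324500 at 0.37. Leaving out 1 section gave G1/S from -1.17 to 0.062 (without D), protease inhibitors from -0.86 to 0.43 (without C) and glutathione S-transferases from -0.013 (without B) to 0.42. Glutathione S-transferases also changed sign with TMM (-0.089), the median ratio (-0.0376), larger circles (-0.0367), outside the circles (-0.12) and without the gene with the most MIDs (-0.38). With the described gene of another table the chitinase ratio fell from 1.85 to 0.99. The proximal meristem ratio of -0.91 was -0.13 without D. The causes were not tested.

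No paired analysis was possible because each region has 1 library. Of the genes tested 1424 had 0 MIDs in A and B, the shallower sections, and 18 had 0 in C and D, and a comparison at equal depth was not run.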

Other observations

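Of the 117 regulators that the study's network assigns to the root cap 38 were tested, of which 7 were higher in both root cap chip sections (12.0% of all genes tested and 38.2% of described genes were) and none lower. The 3 with the widest gaps were all basic leucine zipper 6-like genes. TraesCS3B03G0838100 had 34, 43, 3 and 2 MIDs in A, B, C and D, TraesCS3A03G0731500 had 44, 50, 5 and 5, and TraesCS3D03G0674700 had 22, 21, 2 and 2. Outside the circles their log2 ratios were only 0.69, 0.90 and 0.81, against 6.50, 5.79 and 5.99 within. The most abundant regulator, TraesCS5D03G0237700, ocs element-binding factor 1-like, had 47, 52, 110 and 167 MIDs and was not called. The 12 genes whose groups are root cap regulators in 4 species had 17 MIDs in A and B and 91 in C and D, a ratio of 0.14 (limits -0.70 to 0.90). Genes matched to the root cap cluster of a wheat single-nucleus study had 14, 34, 0 and 3 MIDs, and the 17 genes of the group of AT3G19430 had 20, 32, 0 and 0. Those matched to its proximal meristem cluster had a ratio of -0.91, which rests on section D (1612, 1687, 1811 and 4114 CPM in A, B, C and D, and -0.13 without D), and those matched to Arabidopsis dividing cells one of -0.999.

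The genes with the most MIDs on both sides were mostly not exonic. TraesCS1A03G0000800 had 18836 and 18599 CPM in A and B against 6179 and 4546 in C and D, and 28.8% of its MIDs were exonic. For TraesCS1A03G0001500, TraesCS1A03G0001700, TraesCS1A03G0002200 and TraesCS5A03G1305200, also called higher, the exonic share was 18.9%, 15.7%, 17.2% and 31.7%. TraesCS1A03G0000400, with 5.90% exonic, had a log2 ratio of -0.01. The A subgenome took 38.2% and 38.3% of MIDs in A and B against 35.1% and 34.98% in C and D. The mostly non-exonic genes just named all lie on A chromosomes, so their MIDs are part of this share. The share without them was not computed, so no difference between the subgenomes as a whole can be read from it. Genes called higher were spread evenly, with 33.9%, 32.6% and 32.9% on the A, B and D chromosomes. Of 1374 LC IDs with at least 20 MIDs, scaled to all nuclear MIDs, 8.30% were higher and 6.62% lower.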
